A study of Mus musculus with 8 samples.

Results

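The genes of the cytosolic ribosome were taken from the deposited gene table by name: every gene whose symbol begins with Rpl, Rps or Rplp followed by a number, without the Rps6k kinases and without names that contain -ps. The rule found 89 of the 24547 genes in the table, of which 53 carry large subunit names and 36 small subunit names. The GENCODE annotation calls 83 of them protein coding and 6 pseudogenes, and 1, Rps19bp1, is named for a protein that binds Rps19 and is not a ribosomal protein itself. RNA was sequenced from the livers of ICR mice, an outbred stock. Mice of the treated group were given a high-dose decoction of the fruit drug Psoraleae Fructus (from Psoralea corylifolia) into the stomach for 30 days, and those of the control group were given saline by the same route for the same time. Each group had 4 libraries. No label ties a library to an animal, so a p-value here reflects only how far the libraries of a group differ, which may be technical, and no sex, batch or dose by weight is given.

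A cytosolic ribosome joins a small (40S) subunit, which reads the mRNA, to a large (60S) subunit, which forms the peptide bonds. Each subunit is an rRNA scaffold that carries a fixed set of small basic proteins, and the liver, which secretes most plasma proteins, holds many ribosomes. Many mammalian ribosomal protein mRNAs begin with a run of pyrimidines, the 5′ terminal oligopyrimidine (TOP) tract, through which mTOR signalling and the RNA-binding protein LARP1 set how much of each mRNA is translated. Ribosomal protein mRNAs have also left many processed pseudogenes in the mouse genome, which are copies made from reverse-transcribed mRNA.

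The start of the gene is shown for 5 members that rose and for Rps2, the member that fell, because a pyrimidine tract, where present, lies there. Each line below gives 40 bases before and 20 bases from the start that RefSeq places on GRCm38.p6, with capitals for a C followed by at least 6 further pyrimidines.
Rpl22l1, chr3:28805468-28805527, plus strand: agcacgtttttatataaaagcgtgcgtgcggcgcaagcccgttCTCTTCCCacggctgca
Rpl38, chr11:114668540-114668599, plus strand: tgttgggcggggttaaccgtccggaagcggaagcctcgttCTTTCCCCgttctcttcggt
Rpl35, chr2:39005112-39005171, minus strand: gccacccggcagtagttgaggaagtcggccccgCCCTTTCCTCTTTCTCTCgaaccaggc
Rpl11, chr4:136053374-136053433, minus strand: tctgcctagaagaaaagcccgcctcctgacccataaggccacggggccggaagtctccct
Rps28, chr17:33824543-33824602, minus strand: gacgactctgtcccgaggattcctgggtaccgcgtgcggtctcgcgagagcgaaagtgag
Rps2, chr17:24720023-24720082, plus strand: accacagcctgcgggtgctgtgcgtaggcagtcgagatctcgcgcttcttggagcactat
Of the 5 members that rose, Rpl22l1, Rpl38 and Rpl35 have such a run in the printed start and Rpl11 and Rps28 do not, and nor does Rps2. The Rpl11 line ends within pyrimidines, so a run there could go on past the printed bases. RefSeq had such an entry for 65 of the 89 members. A tract that began between 10 bases before and 20 bases after the start was found in 32 of these 65 (49.2%), against 18.5% of 27025 genes with an entry. It was present in 18 of 29 members that rose (62.1%) and in 12 of 30 that were tested and not called. The motif CCGGAAG, read on both strands of the 300-base promoter entry, was present in 36.9% of members and 9.93% of all genes, and it occurs in the printed starts of Rpl38 and Rpl11. The shares for AAGATGGC were 9.23% of members and 3.19% of all genes, and GGGCGG was present in 39 of 65 members and in 38.2% of all genes. A match here is a run of letters, not a measured binding site or transcription start.

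Library totals ran from 16398729 to 20159132 counts for treated livers and from 15864399 to 19153845 counts for control livers. Control 2 and control 4 were the least alike of the 28 pairs of libraries, with a chi-square of 170.4 per degree of freedom, against 29.66 for the most alike pair, treated 3 and treated 4. Levels are given as CPM (read counts scaled to a common library size), with TMM factors. Levels of single genes are compared with each other only as FPKM, which divides by gene length. In the edgeR quasi-likelihood fit over 12861 genes, 702 genes rose and 482 fell at a Benjamini-Hochberg adjusted p under 0.05, and the median log2 fold change (treated minus control) over all genes was -0.037.

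Ribosomal protein transcripts were higher in treated livers across both subunits. Of the 81 members with enough counts to be tested, 40 rose, where 5.46% of all genes rose, and 1 fell, where 3.75% of all genes fell and 9.21% changed in either direction. The median log2 fold change of the 81 was 0.55, a fold of 1.46, and 76 of them had a positive value. Each tested member was above the level the filter asks for, 0.574 CPM, in every one of the 8 libraries, so none was tested only because of the group in which it was high. In 50 of the 81 every treated library lay above every control library, against 10.2% of all genes, and in 1, Rps2, every treated library lay below every control library, against 8.7% of all genes. Without control 2 and control 4, 22 members rose, where 4.62% of all genes rose. Without treated 3, 13 members rose and none fell, where 1.12% of all genes rose. Without control 3, 15 rose, where 2.18% of all genes rose, and without treated 1, 20 rose, where 2.77% of all genes rose, whereas 13 members kept their call in all 8 fits that left out 1 library.

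The members took a larger share of each treated library. They made up 2.29%, 2.07%, 2.08% and 1.86% of the counts in treated 1 to 4, against 1.68%, 1.63%, 1.27% and 1.41% in control 1 to 4. The groups did not overlap, and control 3 had the lowest share of all. Within the control group, control 1 held the highest value for 61 of the 81 tested members and control 3 the lowest for 55. Within the treated group, treated 1 was highest for 44 members and treated 4 lowest for 49. In bulk tissue, more cells rich in these transcripts and more transcripts per cell cannot be told apart.

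Large and small subunit transcripts were both higher in sum. The large subunit members summed to 13710, 12020, 13540 and 11570 CPM in the treated libraries and to 10420, 8732, 7638 and 8662 CPM in the control libraries. For the small subunit the sums were 9345, 7883, 8739 and 7547 CPM in the treated libraries and 7144, 5979, 5026 and 5468 CPM in the control libraries. Neither pair of groups overlapped. The ratio of large to small averaged 1.52 ± 0.036 in treated livers and 1.51 ± 0.060 in control livers (SD, n = 4 each), and the ranges, 1.47 to 1.55 in treated livers against 1.46 to 1.58 in control livers, overlapped. Without Rps2 the ratio averaged 1.54 ± 0.038 in treated livers and 1.58 ± 0.042 in control livers. Which group had the higher mean thus turned with the row of Rps2. The rows of Rps2 pseudogenes, which these sums leave out, held 224 CPM on average over the 8 libraries. The ratio with them added was not taken. Summed as FPKM, the treated mean was 1.48 times the control mean for the large subunit and 1.38 times for the small. By count, 28 of 48 large subunit members rose (58.3%) and 12 of 33 small subunit members rose (36.4%), where 5.46% of all genes rose. Their median log2 fold changes were 0.59 and 0.48. The difference between these shares was not tested.

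**Figure D1:**
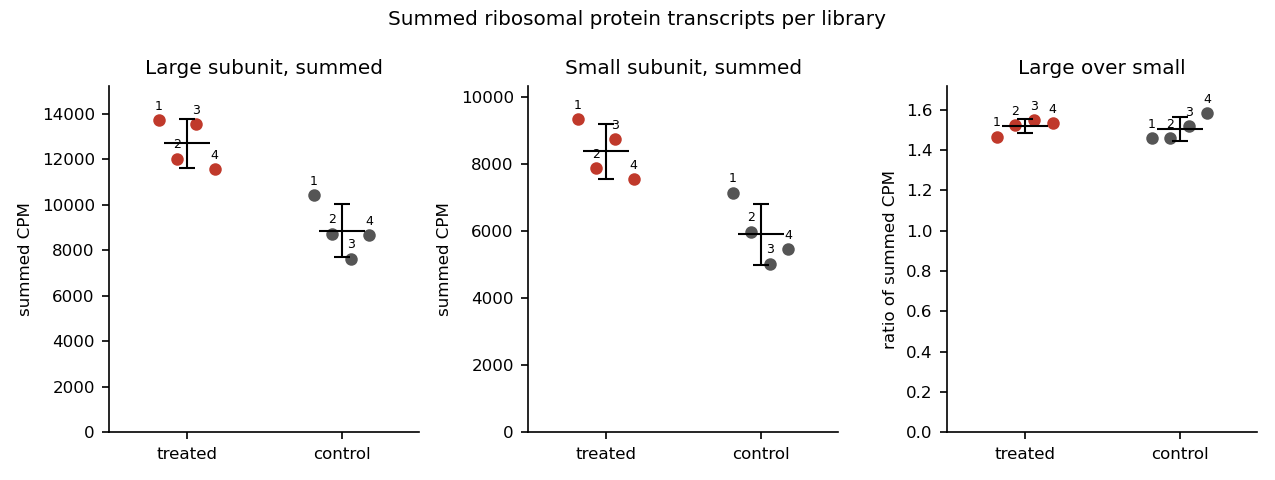
Summed CPM of the large subunit members (left), of the small subunit members (middle) and the ratio of the sums (right) in 4 treated and 4 control libraries; numbers are replicate numbers and bars are the mean ± SD. Both sums lie higher in every treated library than in any control library, and the ratio overlaps between the groups.

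The proteins that hold the 5S rRNA, Rpl5 and Rpl11, also bind Mdm2, the ubiquitin ligase of p53, when they are free of the ribosome. Rpl11 stood at 340.0, 309, 375 and 306 CPM in treated livers, against 174, 142, 129 and 158 CPM in control livers. Every treated library was well above every control library, and the log2 fold change was 1.14 (SE 0.14, adjusted p = 0.00501, edgeR). Its partner Rpl5 had 478, 382, 398 and 389.5 CPM in treated livers and 398, 345, 285 and 298 CPM in control livers. These groups overlapped, since treated 2, treated 3 and treated 4 lay below control 1, treated 3 by a small margin, and the log2 fold change of 0.31 was not called (adjusted p = 0.204, edgeR).

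Around the mouth of the tunnel through which the new chain leaves the large subunit sit 8 members. Of these 6 rose (75.0%), where 5.46% of all genes rose, and the list had a median log2 fold change of 0.67. Rpl23a, a docking site for the signal recognition particle, had 14.9, 20.7, 20.7 and 20.4 CPM in treated livers and 8.89, 8.27, 5.78 and 4.57 CPM in control livers. All treated libraries were above all control libraries, with treated 1 the lowest of its group, and the log2 fold change was 1.48 (SE 0.22, adjusted p = 0.00811). Rpl23a exons overlap those of Tlcd1 on the opposite strand over 506 bases and Rpl35 exons overlap those of Wdr38 over 821, and reads from such pairs cannot be told apart without strand. The same holds for other members, among them Rpl5 with Fam69a over 953 bases, Rpl28 with Ube2s over 183 and Rps28 with Kank3 over 88.
Rpl35, the neighbour of Rpl23a at the tunnel exit, had 24.2, 30.5, 27.1 and 23.1 CPM in treated livers against 15.4, 12.3, 15.2 and 13.1 CPM in control livers. The groups were apart, with a log2 fold change of 0.91 (SE 0.13, adjusted p = 0.00799). Rpl22 and Rpl39 at the same rim rose by 0.74 and 0.65 on the log2 scale (adjusted p = 0.0104 and 0.0357, edgeR). Rpl22 kept its call in all 8 fits without 1 library and Rpl39 in 2 of them. Rpl17, 1 of the 3 large subunit members with the highest FPKM, averaged 502 ± 41.2 FPKM in treated livers and 378 ± 41.3 FPKM in control livers (SD, n = 4 each), and its log2 fold change of 0.45 was not called (adjusted p = 0.083, edgeR).

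The P stalk recruits the translation factors that hydrolyse GTP. Rplp1, an acidic stalk protein and the member with the highest FPKM in treated livers, had 476, 450.3, 497 and 352 CPM in treated livers, against 238, 227, 227 and 204 CPM in control livers. Its groups were far apart, and it rose by 0.99 on the log2 scale (SE 0.15, adjusted p = 0.00769). Per length, Rplp1 averaged 875 ± 127 FPKM in treated livers and 456 ± 39.6 FPKM in control livers (SD, n = 4 each). The other stalk members were not called. Rplp2, the partner of Rplp1, had 154, 152, 182 and 153 CPM in treated livers and 144, 130.3, 108 and 116 CPM in control livers, a log2 fold change of 0.37 (adjusted p = 0.1, edgeR). Its groups did not overlap although the test was not passed. Rplp0, the protein that anchors both, had 527, 469, 479 and 479 CPM in treated livers and 561, 473, 398 and 362 CPM in control livers, and these overlapped. Rpl12, at the base of the stalk, had a log2 fold change of 0.52 (adjusted p = 0.0585, edgeR).

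Of the other large subunit members, Rpl38 and Rpl36 were among the 10 members that rose by more than 2-fold. Rpl38, known in the mouse for its part in translating Hox mRNAs during body patterning, had 109, 109, 132 and 109 CPM in treated livers, against 59.5, 59.4, 44.3 and 58.5 CPM in control livers. The treated libraries all lay above the control libraries, with treated 3 high and control 3 low within their groups, and the log2 fold change was 1.05 (SE 0.13, adjusted p = 0.00501). Rpl36 had 244, 219, 307 and 221 CPM in treated livers and 142, 95.5, 85.5 and 103 CPM in control livers. It did not overlap between the groups and rose by 1.22 on the log2 scale (SE 0.18, adjusted p = 0.00816). Rpl28 had 297, 250.5, 312 and 252 CPM in treated livers and 159, 135, 96.7 and 96 CPM in control livers, again without overlap, and rose by 1.19 (SE 0.19, adjusted p = 0.0089). Rpl9 lay just short of the threshold, at a log2 fold change of 0.55 and an adjusted p of 0.053 by edgeR.

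In the small subunit, the members that rose were mostly proteins of the head, the lobe that swivels as the mRNA and tRNAs move on. Of 13 tested head members 10 rose, with a median log2 fold change of 0.94, and of 16 members of the body and platform 2 rose (12.5%) and 1 fell, with a median of 0.30. Of all genes 5.46% rose and 3.75% fell. The share of the body and platform rests on 2 genes, and no result about that list is read from it. No test compared the head with the body.
Rps29, a zinc-binding head protein, had 123, 157, 181 and 148 CPM in treated livers, against 67.2, 69.5, 55.7 and 66.4 CPM in control livers. Treated 1 was the lowest treated library and still lay far above every control library. The log2 fold change was 1.24 (SE 0.14), with the smallest adjusted p of the members, 0.0036.
Rps28, near the mRNA exit, had 111, 114, 127 and 111 CPM in treated livers and 57.8, 44.8, 33.2 and 29.5 CPM in control livers. The 4 treated libraries were alike, the control libraries spread over a wider range below them, and the log2 fold change was 1.49 (SE 0.20, adjusted p = 0.00558). Rps16, whose tail reaches the tRNA in the peptidyl site, had 333, 293, 304 and 263 CPM in treated livers and 191, 134, 116 and 135 CPM in control livers. It did not overlap between the groups and rose by 1.05 (SE 0.17, adjusted p = 0.00965).

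Rps19, in which loss-of-function mutations cause Diamond-Blackfan anaemia in humans, is also a head protein. It had 212, 182, 206 and 163 CPM in treated livers and 124, 111, 85.9 and 74.2 CPM in control livers. All treated libraries lay above all control libraries, and the log2 fold change was 0.95 (SE 0.18, adjusted p = 0.0146, edgeR).
Rps15 had 282, 256, 322 and 251 CPM in treated livers and 184, 142, 125 and 126 CPM in control livers and rose by 0.94 on the log2 scale (SE 0.16, adjusted p = 0.0112). Rps3, a head protein at the mRNA entry, had a log2 fold change of 0.57 and missed the threshold (adjusted p = 0.0578, edgeR).

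On the body and platform, Rps9 rose, and Rps6, Rps3a1 and Rps24 were not called. Rps9, at the mRNA entry, had 418, 363, 379.8 and 352 CPM in treated livers and 280.3, 228, 188 and 191 CPM in control livers, without overlap, and a log2 fold change of 0.77 (SE 0.16, adjusted p = 0.0213), and it kept its call in 5 of the 8 fits without 1 library. Rps6, the substrate of the S6 kinases downstream of mTOR, had 518, 434, 455 and 416 CPM in treated livers and 479, 389, 331 and 360.1 CPM in control livers. Its groups overlapped, and the log2 fold change was 0.23 (adjusted p = 0.359, edgeR). Rps3a1, the small subunit member with the highest FPKM, averaged 526 ± 79.8 FPKM in treated livers and 381 ± 50.2 FPKM in control livers (SD, n = 4 each), with an adjusted p of 0.0747 by edgeR. Rps24 had a log2 fold change of 0.73 and an adjusted p of 0.0535 by edgeR.

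**Figure D2:**
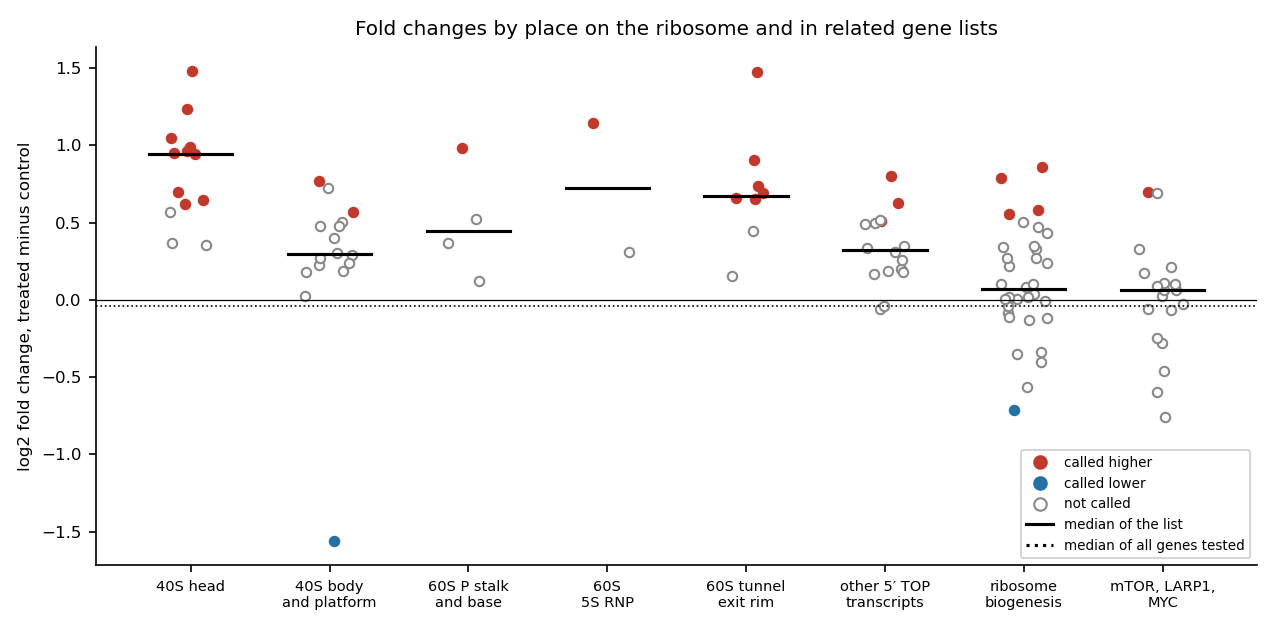
Log2 fold change (treated minus control, vertical axis) of the tested genes of 5 lists by place on the ribosome and of 3 related lists, from the edgeR fit on 4 treated and 4 control libraries; each point is a gene, red rose, blue fell, open was not called, and bars are list medians. The head of the small subunit has a median of 0.94 and its body and platform 0.30, and the biogenesis and mTOR lists have medians of 0.070 and 0.063.

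Rpl22l1 is a paralog of Rpl22, and the pair can replace each other in the large subunit. Rpl22l1 had 7.95, 10.7, 9.53 and 8.24 CPM in treated livers, against 4.87, 1.66, 2.26 and 1.26 CPM in control livers. Every treated library was above every control library, the nearest being control 1. Its log2 fold change of 1.86 (SE 0.38, adjusted p = 0.0202) was the largest among the tested members, a fold of 3.63, and without control 1 it was 2.40. The call ended without treated 2, treated 3 or control 3, with adjusted p-values of 0.0538, 0.0681 and 0.0639 in edgeR. Rpl22 itself had 216, 197, 220.3 and 183 CPM in treated livers and 131, 111, 113 and 133 CPM in control livers, without overlap, so both members of the pair rose. Per length, Rpl22l1 remained far the scarcer, at 4.51 ± 0.748 FPKM in treated livers and 1.26 ± 0.753 FPKM in control livers, against 69 ± 5.48 FPKM in treated livers and 42.5 ± 2.65 FPKM in control livers for Rpl22 (SD, n = 4 each).

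In the other pairs the less common copy was not called or not tested. Rpl3l, the form of Rpl3 found in heart and skeletal muscle, was at or below 0.120 CPM in every library and was not tested. Rpl3 had a log2 fold change of 0.39 (adjusted p = 0.152). Rpl7 and its nucleolar relative Rpl7l1 had log2 fold changes of 0.30 and 0.076 (adjusted p = 0.228 and 0.684). For Rps27 and the p53-responsive Rps27l the log2 fold changes were 0.18 and 0.37, for Rpl10 0.29 and for Rps4x 0.29, none of them called (adjusted p between 0.141 and 0.517, edgeR). With the trend on gene length and GC content removed, the value of Rps27 was -0.11. Rpl36a rose by 0.70 (adjusted p = 0.0181), and its paralog Rpl36al was not tested. Rps4l, which the annotation calls a pseudogene, had 1.5, 3.29, 0.911 and 1.01 CPM in treated livers and 2.1, 14.4, 3.52 and 4.46 CPM in control livers. These groups overlapped, control 2 alone exceeded 10 CPM, and the log2 fold change of -1.87 was not called (adjusted p = 0.105, edgeR).

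Rps2, a body protein at the mRNA entry, was the member that fell. It had 87.7, 82.8, 99.2 and 90.1 CPM in treated livers, against 320.5, 366, 251 and 126 CPM in control livers. The treated libraries were tightly grouped and all below the control libraries, which spread widely, with control 4 the lowest of them. The log2 fold change was -1.56 (SE 0.28, adjusted p = 0.0144), and without treated 3 the adjusted p was 0.0540 in edgeR. A processed pseudogene on the X chromosome, Rps2-ps13, has 99.2% identity to the Rps2 coding sequence, with 7 differences over 879 bases. The table lists it as a gene of its own, and it ran the other way.

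Bases 42 to 101 of the Rps2 coding sequence, counted from the A of the start codon, and the matching stretch of the pseudogene show how close the pair is; capitals mark the differing bases, T60A and A84G, with the base of Rps2 first.
Rps2: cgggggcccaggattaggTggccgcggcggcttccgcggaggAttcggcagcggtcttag
Rps2-ps13, GRCm38, chrX:52898629-52898688, plus strand: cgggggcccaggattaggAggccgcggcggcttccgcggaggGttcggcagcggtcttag
The row of Rps2-ps13 held 334, 338, 350.3 and 303 CPM in treated livers, against 122, 0.103, 91.7 and 219.9 CPM in control livers. The treated libraries were all above the control libraries, control 2 was near 0, and control 4, the control library with the least Rps2, had the most Rps2-ps13. In edgeR its log2 fold change of 1.61 was not called (SE 1.23, adjusted p = 0.423). With the rows of all Rps2 pseudogenes added to it, Rps2 had 426, 424, 453 and 395 CPM in treated livers and 449, 371, 346 and 349.8 CPM in control livers. The sums overlapped between the groups through control 1, and the log2 fold change became 0.16 (SE 0.14, adjusted p = 0.453). So the fall of Rps2 held for its own row and not for the row together with its near-identical copies. How reads were divided between the rows was not tested.

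A smaller shift of the same kind was seen for Rplp0 and its pseudogene Gm8730 on chromosome 8, which differ at 12 of 951 bases. A stretch with 3 of them, bases 388 to 447 of the coding sequence, is shown with A390G, A393G and A447T in capitals, the base of Rplp0 first. The sequence of Gm8730 is read here on its own strand.
Rplp0: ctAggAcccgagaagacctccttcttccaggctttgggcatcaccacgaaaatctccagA
Gm8730, GRCm38, chr8:102865352-102865411, minus strand: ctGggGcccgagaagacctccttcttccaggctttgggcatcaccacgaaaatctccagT
Gm8730 had 104, 95.3, 118 and 50.6 CPM in treated livers and 0.3, 0.31, 0.252 and 83.5 CPM in control livers. It was above 50 CPM in all 4 treated libraries and in control 4, and near 0 in the other 3 control libraries. The log2 fold change of Rplp0 was 0.12 for its own row and 0.31 with its pseudogene rows added (adjusted p = 0.647 and 0.201, edgeR), not called in either, and -0.15 for its own row with the trend on gene length and GC content removed. Rps24-ps3, an X-linked copy of Rps24, ran the opposite way, with 0.05, 0, 0.0607 and 0 CPM in treated livers and 27.5, 26.3, 47 and 0 CPM in control livers. The log2 fold change of Rps24 was 0.73 for its own row and 0.54 with its pseudogene rows added (adjusted p = 0.0535 and 0.058, edgeR). Rps19-ps6 had 28.8, 22.2, 29.2 and 20 CPM in treated livers and 12.9, 0.155, 0 and 13.6 CPM in control livers, and was near 0 in control 2 and control 3.

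**Figure D3:**
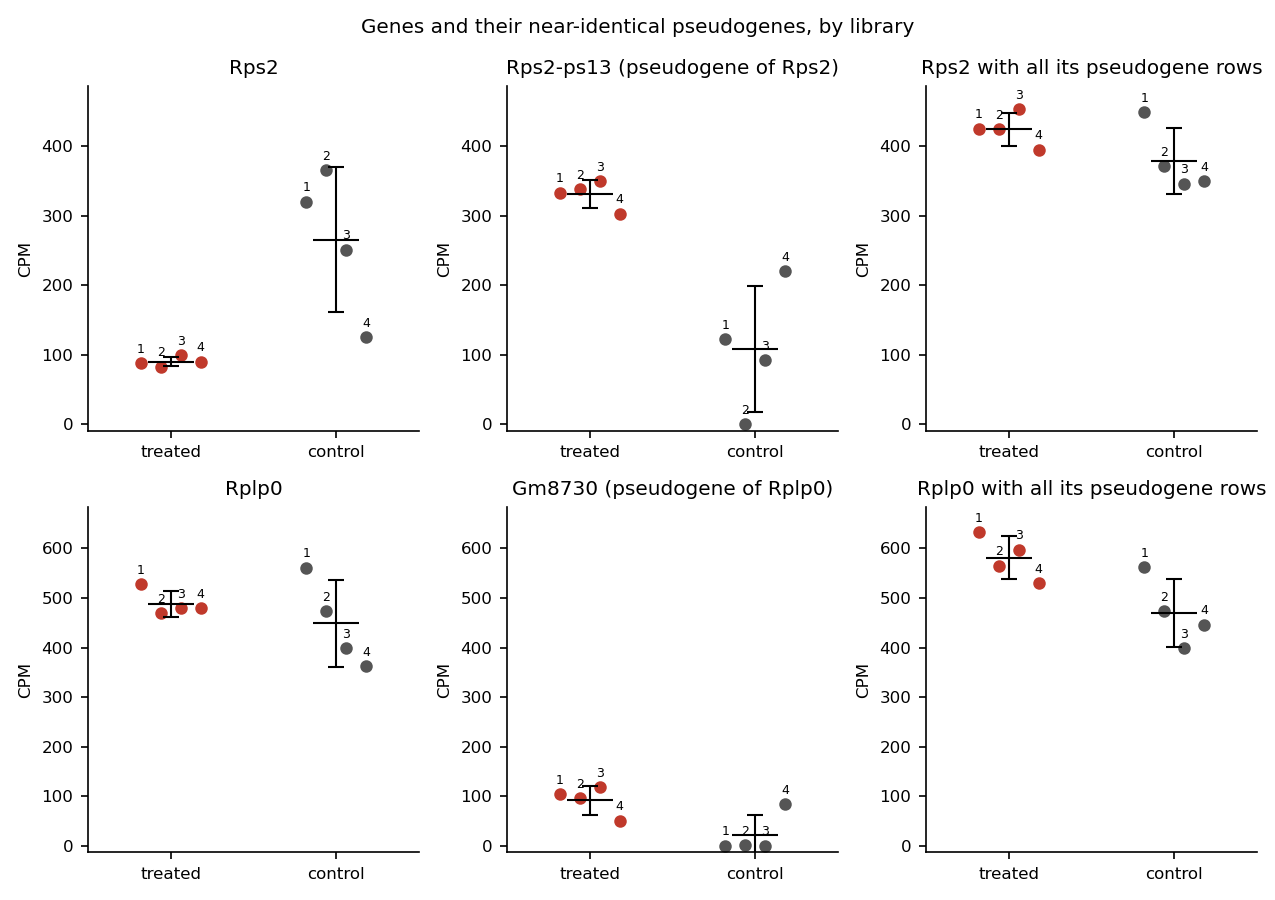
CPM in 4 treated and 4 control libraries of Rps2 (top) and Rplp0 (bottom), of a near-identical pseudogene of each (middle column) and of the gene with all its pseudogene rows added (right column); numbers are replicate numbers and bars are the mean ± SD. Rps2 is low in all treated libraries where Rps2-ps13 is high, and the sums overlap between the groups.

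Pseudogene rows as a whole took a small share. In all, 470 rows aligned to the coding sequence of a ribosomal protein gene at 90% identity or more over at least 50% of its length, and 13 of them reached 5 CPM in any library. They made up 2.83% ± 0.15 of the counts of members and pseudogenes together in treated livers and 1.77% ± 0.85 in control livers (SD, n = 4 each), with control 4 at 2.87% and control 2 at 0.81%. Of 53 pseudogene rows with enough counts, 10 rose in the edgeR fit (18.9%), where 5.46% of all genes rose, and 0 were called lower. The filter can be passed through the treated group alone, so rows near 0 in control libraries could be among the 53. No result about the pseudogene rows is read from these shares. When each pseudogene row was added to its gene, 40 members rose and none fell, where 5.40% of all genes rose and 3.68% fell, and the call of Rps2 was the only one among the members that changed.

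Not tested for low counts were 8 members. They are Rps10, Rpl24, Rpl36al and Rpl3l, and the annotated pseudogenes Rps3a2, Rps3a3, Rpl6l and Rpl32l, none of which exceeded 1.01 CPM in any library. Rps10 and Rpl24, core proteins of the small and large subunit, had 0.364 to 0.597 and 0 to 0.121 CPM in treated livers, against 0.361 to 1.01 and 0.0525 to 0.24 CPM in control livers. Exons of Rps10, Rpl24 and Rpl36al overlap, over 475, 484 and 332 bases, those of another gene annotated on the same strand that has no row in the table. The exons of Rpl13a, with 5.02 to 7.65 CPM in treated livers and 1.99 to 3.62 CPM in control livers, overlap such a gene over 621 bases. The part of these overlaps in the low counts was not tested.

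Across all genes the fold change followed gene length and base composition, with rank correlations of the log2 fold change of -0.241 with length and 0.328 with GC content. The shortest of 10 equal bins of genes had a median log2 fold change of 0.29 and the longest bin one of -0.18. Most ribosomal protein genes are short, and 31 of the 81 tested members fell in the shortest bin, where the members had a median of 0.58. Among the members themselves the rank correlation with length was -0.018 over 81 genes, and with GC content it was 0.074. After the correction described next, these correlations were 0.441 and -0.28, so shorter members tended to have lower corrected values. With a smooth trend on length and GC content taken out of each library, 19 members rose, where 2.54% of all genes rose, all of them among the 40. They were 12 large and 7 small subunit members, and the members' median log2 fold change was 0.38, against -0.0056 for all genes. Rps2 and Rps19bp1 fell in that fit, where 1.17% of all genes fell, at log2 fold changes of -1.82 and -0.52 (adjusted p = 0.0177 and 0.0437, edgeR). Of the members named above, Rpl36, Rplp1, Rpl38, Rpl35 and Rps15 lost their calls there, at log2 fold changes of 0.23, 0.24, 0.39, 0.51 and 0.21. Rpl39 and Rps9 lost theirs at 0.56 and 0.67 (adjusted p = 0.078 and 0.0524, edgeR), whereas Rpl11, Rps28 and Rpl22l1 kept theirs, at 1.04, 1.37 and 1.99. Of the head of the small subunit 6 of 13 rose and of its body and platform 1 of 16. At the rim of the exit tunnel 3 of 8 rose in that fit.

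**Figure D4:**
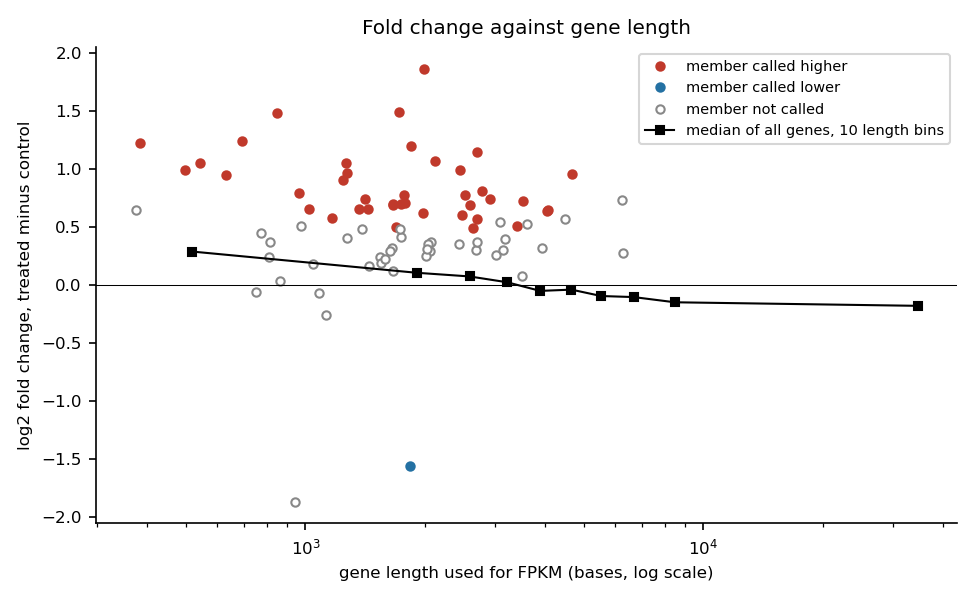
Log2 fold change (treated minus control, vertical axis) of the 81 tested members against the gene length used for FPKM (bases, log axis), from the fit on 4 treated and 4 control libraries; red points rose, blue fell, open were not called. Black squares are medians of all genes tested in 10 bins of length, placed at the middle of each bin on the log axis, and fall to -0.18 in the longest bin, where no member lies.

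The other lists of genes of translation had lower medians than the 0.55 of the members, the first by a small margin. Of 4 ribosomal proteins whose names fall outside the rule, with a median of 0.51, 1 rose (25.0%), where 5.46% of all genes rose. It was Fau, at 0.66 on the log2 scale (adjusted p = 0.028, edgeR), and its value was 0.10 with the length and GC trend removed. Of 16 other transcripts known to carry a TOP tract 3 rose (18.8%), with a list median of 0.32. They were Eef1d and Eef1b2, subunits of the exchange factor of elongation factor 1, and Gas5, a host gene of small nucleolar RNAs, at log2 fold changes of 0.63, 0.51 and 0.80 (adjusted p = 0.0307, 0.0372 and 0.033, edgeR).

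Of 34 genes of ribosome biogenesis and rRNA synthesis 4 rose (11.8%), where 5.46% of all genes rose, and 1 fell, where 3.75% of all genes fell, with a median log2 fold change of 0.070. Rrp9, of the small subunit processome, averaged 10.1 ± 1.03 CPM in treated livers and 5.55 ± 0.613 CPM in control livers (SD, n = 4 each), a log2 fold change of 0.86 (adjusted p = 0.014, edgeR). Nhp2, of the pseudouridylation complexes, and Sbds, which acts in the release of Eif6 from the large subunit, rose by 0.59 and 0.56. Ltv1, an assembly factor that leaves the small subunit late, fell, at a log2 fold change of -0.71 (adjusted p = 0.0331, edgeR). With the length and GC trend removed these calls were lost, although the log2 fold changes of Ltv1 and Sbds, -0.69 and 0.51, were close to those above, and those of Rrp9 and Nhp2 were 0.60 and 0.23 (adjusted p between 0.0517 and 0.252, edgeR). Of 19 genes that control ribosomal protein mRNAs through mTOR, LARP1 or MYC, 1 rose (5.26%), near the 5.46% of all genes. It was Akt1s1, the mTORC1 subunit PRAS40, at a log2 fold change of 0.70 (adjusted p = 0.0122, edgeR). Its value was 0.25 once the length and GC trend was removed.

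Markers of other liver cells differed between the groups in part. The summed level of 6 hepatocyte markers lay between 126100 and 144400 CPM in treated livers and between 103900 and 157100 CPM in control livers, and none of them was called. Most of this sum was Alb, at 110100 to 128900 CPM in treated livers and 86670 to 133400 CPM in control livers. In 1 of the 6, Serpina1a, every treated library lay below every control library, against 8.7% of all genes. Its log2 fold change was -0.74 (adjusted p = 0.0653, edgeR). Of all genes 3.75% fell. Of 7 Kupffer cell and macrophage markers 2 fell, Timd4 and Adgre1. The list summed to between 208 and 432 CPM in treated livers and between 353 and 784 CPM in control livers. Of 6 T and NK cell markers 4 were tested and 3 fell, Il2rb, Nkg7 and Cd3g, with sums of 4.58 to 7.59 CPM in treated livers and 8.92 to 30.1 CPM in control livers. Endothelial sums were 133 to 195 CPM in treated livers against 176 to 284 CPM in control livers, with Pecam1 and Tek lower among 5 markers, and stellate cell sums were 250 to 342 CPM in treated livers against 331 to 416 CPM in control livers, with Pdgfra lower among 5. B cell, cholangiocyte and erythroid markers gave overlapping sums with none called. Called or not, all 7 Kupffer cell and macrophage markers, all 4 tested T and NK cell markers and all 5 endothelial markers had negative log2 fold changes. Of the stellate cell markers 4 were negative and 1 positive, and of the hepatocyte markers 3 were negative and 3 positive. No marker was at 0 in every library. The part of these cells in the levels of the ribosomal protein genes was not tested.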

How the data were processed

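The deposited table holds raw counts per gene and FPKM values for each of 8 libraries. Trizol extraction, selection on poly-T beads and a library kit that the labels do not call stranded were used, per the labels' protocols. The submitters' processing notes name build GRCm38 and, with no role, the tools HISAT2, DESeq2 1.32.0 and HTSeq 0.13.5. The annotation release and strand setting were not given in the sources used here. The FPKM values deposited by the authors divide by a gene length that equals the union of exons in the mouse GENCODE release (M21) for 22298 genes.

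Genes were tested on the deposited counts with edgeR 4.0.16 (quasi-likelihood F test, filterByExpr, TMM, robust dispersion, group as the only term) in R 4.3.3, with Benjamini-Hochberg adjustment over 12861 genes and a threshold of 0.05. CPM values use the TMM factors. Alternatives used limma 3.58.1 on log2(FPKM + 1) or log2(FPKM + 0.1), DESeq2 1.42.0, other scalings and filters, a replicate block, and a spline of 5 degrees of freedom on log2 length and GC content. Pseudogene rows were assigned to genes with blastn 2.17.0 against GENCODE coding sequences; adding them to their gene was chosen after seeing the data. Promoter sequences are RefSeq's on GRCm38.p6.

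The members and lists were chosen with earlier results of these data known. Members named are Rps2 and Rpl22l1, the 8 called members of smallest adjusted p and the 3 of highest FPKM per subunit, paralog pairs, the stalk, Rpl5, Rpl11 and Rps6, and members with an adjusted p between 0.05 and 0.06; of other lists, up to 4 called genes. Some genes that these rules take in are not reported here. Rps10, Rpl24, Rpl13a, Rps19bp1 and the pseudogene rows were named after their values were seen.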

Additional observations from a re-analysis of the deposited data

Results flagged for a closer look

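In 10 of 104 groups of 4 libraries checked among the named members and pseudogene rows, 1 library stood apart from the other 3 by Dixon's criterion at its 95% critical value. Chance alone marks about 1 in 20 groups that were not picked by their values. The pseudogene rows were picked after their values were seen, so no excess is read from the 10. Among the members, Rpl38 was high in treated 3 (131.9 CPM) and low in control 3 (44.3 CPM), Rplp2 was high in treated 3 (182.3 CPM), Rpl5 was high in treated 1 (477.9 CPM) and Rpl23a was low in treated 1 (14.95 CPM).

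The other 5 were pseudogene rows. Rpsa-ps10, a copy of Rpsa on chromosome 3, had 282.7 CPM in control 1 and under 2 CPM in every other library. AC122453.1 had 31.67 CPM in control 1. Gm8730 had 83.51 CPM in control 4 and near 0 in the other control libraries. Gm14303 had 14.1 CPM and Gm15500 5.0 CPM in treated 1. The sum of Rpsa with its pseudogene rows was 736, 602, 687 and 598 CPM in treated livers and 669, 573, 479.6 and 632 CPM in control livers, so the summed level of control 1 lay within the range of the treated libraries.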

How the results depend on the processing

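Of the members called, none changed direction under any alternative except Rps2, whose log2 fold change was 0.16 with pseudogene rows added to their gene. The count of genes called was 2160 with DESeq2, 480 with limma on log2(FPKM + 1) without a filter, 478 with the length and GC correction, 476 with pseudogene rows added and that correction, 295 with the replicate block and the correction, and 145 at an adjusted p under 0.01. Members called higher numbered 49 with DESeq2, against 40 in the edgeR fit, 28 with limma without a filter, 19 with the length and GC correction, 18 with pseudogene rows added too, 12 with the replicate block and the correction, 11 at an adjusted p under 0.01 and 22 without control 2 and control 4. For the last 5 of these settings, in the same order, large subunit members called higher numbered 12, 10, 4, 7 and 15, and small subunit members 7, 8, 8, 4 and 7. Of all genes, 4.98% rose with DESeq2, 5.46% in the edgeR fit and 1.62% with limma without a filter. The share was 2.54% with the length and GC correction, 2.53% with pseudogene rows added too and 1.57% with the replicate block and the correction. Without control 2 and control 4 it was 4.62%. At an adjusted p under 0.01 only the 145 genes called in either direction are given. Members called lower numbered 2 with DESeq2, the length and GC correction, the replicate block, and the block with the correction, and 0 with limma without a filter, with pseudogene rows added and at an adjusted p under 0.01. All genes called lower numbered 1018 with DESeq2, 151 with the correction, 347 with the block and 93 with both.

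Leaving out 1 library at a time gave 183 to 2330 genes called, 13 to 44 members higher, 8 to 29 large and 5 to 16 small subunit members higher, and 0 to 1 lower; the lowest counts came without treated 3, and 2330 genes were called without control 4. In these fits 1.12% (without treated 3) to 9.35% (without control 4) of all genes rose. The median log2 fold change lay between 0.52 and 0.68 for the large and between 0.41 and 0.59 for the small subunit. Libraries with the same replicate number had correlations of 0.177, 0.0589, -0.0124 and 0.0697, where the other pairs of a treated and a control library ran from -0.207 to 0.176. So few pairs cannot settle whether the libraries were paired. With the replicate block 944 genes, 35 members higher and 2 lower were called, where 4.64% of all genes rose. With 4 libraries a group, changes of small size lie under what the test can call. The cause of these shifts was not tested.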
